A study of Mus musculus with 36 samples.

Results

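In mouse embryonic stem cells, 6109 CTCF binding sites had a called peak on days 0, 4 and 6 and none on day 2. They were chosen from the CTCF peak lists themselves: the lists of the 4 days were merged into 53682 sites by an overlap of 1 bp or more, and the sites with exactly that pattern were kept, 11.4% of all. They are called sites missing on day 2 alone. The sites with a CTCF peak on days 0, 2, 4 and 6 number 25409 and are called sites of all 4 days. Because peak presence chose them, every CTCF value of these sites is a description and no test was made of it.

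The study made ChIP-seq of CTCF and MBD3, and input chromatin, on days 0, 2, 4 and 6, with 3 libraries in each of 12 groups, 36 samples in all. The names of the peak lists call the cells WT, and the labels give no other genotype. The cells grew with LIF and KnockOut Serum Replacement, typically on gelatin with irradiated mouse embryonic fibroblasts, so the culture of every group can hold fibroblast chromatin. Whether the culture was altered over the 6 days is not given in the sources used here. Each peak list pools 3 libraries, so no value has a spread between replicates, and the intervals given are exact (Clopper-Pearson) 95% intervals that cover counting error only. Nothing in the labels says that the libraries came from separate cultures.

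CTCF is a zinc finger protein that binds a long, well-conserved DNA motif, blocks the cohesin complex as it extrudes chromatin loops, and so marks the borders of many chromatin domains. MBD3 is a subunit of the NuRD complex, which joins histone deacetylases to a nucleosome-remodelling ATPase and which embryonic stem cells need in order to leave the self-renewing state. The title of the series places the NuRD complex at CTCF sites, and MBD3 peaks at these sites were not used to choose them.

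The DNA under such sites could be read where the day 0 summit, the base with the most fragments, lay in a promoter window of RefSeq (GRCm38.p6, 250 bases before to 50 after a gene start). This held for 242 windows of 238 genes. They were searched on both strands for a core of the CTCF motif, CCNNNAGNNGGC. The sequences below are shown so that the letters of the motif can be set beside the values. Which bases CTCF bound was not measured. Each runs 5′ to 3′ along the gene's strand, and the capitals mark the core motif, which reads GCCNNCTNNNGG where it lies on the strand opposite to the gene. First come the 5 motif-holding promoters at sites missing on day 2 alone whose day 0 CTCF fold was highest among those with enough flanking sequence in the window.
Gm41874: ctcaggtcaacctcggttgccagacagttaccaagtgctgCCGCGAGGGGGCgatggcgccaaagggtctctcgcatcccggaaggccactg
Defb36: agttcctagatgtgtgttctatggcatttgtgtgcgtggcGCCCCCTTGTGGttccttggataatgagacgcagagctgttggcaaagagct
Gm10610: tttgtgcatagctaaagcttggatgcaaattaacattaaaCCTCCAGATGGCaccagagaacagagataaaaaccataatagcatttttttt
Gm41453: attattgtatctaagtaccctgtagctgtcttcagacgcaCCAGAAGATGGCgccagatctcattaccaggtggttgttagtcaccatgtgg
Calhm5: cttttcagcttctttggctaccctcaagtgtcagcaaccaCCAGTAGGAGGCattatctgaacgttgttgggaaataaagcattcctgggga

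Fold is the peak caller's enrichment at the summit over its expected background. The stretch of the lncRNA gene Gm41874 lies at chr19:57404311-57404402 (plus strand), and its site had CTCF folds of 10.7, 14.2 and 15.3 on days 0, 4 and 6. Defb36, a beta-defensin gene, is shown at chr2:152604153-152604244 (plus strand), with folds of 8.57, 8.26 and 8.81 on the same days. The lncRNA gene Gm10610 is shown at chr7:83550281-83550372 (minus strand), with folds of 7.69, 13.8 and 10.6. In these and in the remaining pair the motif centre lay 9 to 17 bp from the day 0 summit. The lncRNA gene Gm41453, at chr16:38482957-38483048 (minus strand), had folds of 7.65, 7.93 and 9.39. Calhm5, which encodes a member of the calcium homeostasis modulator channel family, is shown at chr10:34096596-34096687 (minus strand) and had folds of 7.17, 11.4 and 7.6.

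Next, a pair of promoters without an exact match to the core motif at sites missing on day 2 alone is shown. A pair with it follows, at the sites of all 4 days with high folds.
Ess2: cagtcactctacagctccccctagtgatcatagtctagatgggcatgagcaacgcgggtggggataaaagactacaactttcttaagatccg
4930432J09Rik: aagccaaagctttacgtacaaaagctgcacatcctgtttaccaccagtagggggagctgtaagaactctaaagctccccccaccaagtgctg
Rapgef1: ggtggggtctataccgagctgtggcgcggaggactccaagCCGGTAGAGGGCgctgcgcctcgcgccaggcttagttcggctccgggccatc
Nipsnap2: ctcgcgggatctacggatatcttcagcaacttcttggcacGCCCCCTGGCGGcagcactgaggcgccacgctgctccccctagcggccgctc

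Ess2, a splicing-related nuclear protein gene, is shown at chr16:17911416-17911507 (minus strand), and its site had CTCF folds of 8.21, 12.2 and 10.9 on days 0, 4 and 6. The lncRNA gene 4930432J09Rik is shown at chr14:104027250-104027341 (minus strand), with folds of 9.05, 8.19 and 14.6. That no capitals appear says only that these exact letters are not in the window. The 4930432J09Rik stretch holds a run that differs from the core motif in its last letter alone, and such near matches were not counted. Rapgef1, a guanine nucleotide exchange factor for Rap1, is shown at chr2:29619599-29619690 (plus strand) and had CTCF folds of 42.9, 22.7, 35.4 and 33.2 on days 0, 2, 4 and 6, with MBD3 folds of 29.8, 11.6, 19.8 and 23.6. Nipsnap2, a mitochondrial protein gene, is shown at chr5:129724923-129725014 (plus strand) and had CTCF folds of 42.5, 18.9, 30.8 and 40.03 on the 4 days. Both of these sites had their lowest CTCF fold on day 2.

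The exact core motif stood in 24.4% of the 242 windows at sites missing on day 2 alone (59 windows, interval 19.1 to 30.3). At sites of all 4 days it stood in 45.5% of the 1163 windows (interval 42.6 to 48.4). Of all 32851 promoter windows of the same length, 8.61% held it. Where it was found, its centre lay a median of 19 bp from the day 0 summit in the windows missing on day 2 alone, and 16 bp in those of all 4 days. Both kinds of window held a median of 21 CpG dinucleotides, against 7 over all promoters. The motif shares are given by peak strength with no test of a difference. The −log10 q of a peak is the caller's measure of its certainty, higher for stronger peaks. Where the lowest −log10 q of days 0, 4 and 6 was under 10, the shares were 25.2% of 107 windows missing on day 2 alone and 26.8% of 41 windows of all 4 days. From 10 to 20 they were 20.2% of 89 and 25.3% of 83 windows, and from 20 to 40 they were 31.4% of 35 and 36.6% of 142 windows. At 40 or more they were 27.3% of 11 windows (interval 6.02 to 61.0) and 49.6% of 897 windows (interval 46.3 to 52.9), and most promoter windows of all 4 days were in that class.

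The sites missing on day 2 alone were weaker than the sites of all 4 days on each day on which both had peaks. On day 0 the median fold was 5.75 (quartiles 4.47 and 7.31) at sites missing on day 2 alone and 9.87 at sites of all 4 days. The day 4 medians were 5.95 and 10.4, and the day 6 medians 6.27 and 11.2, in the same order of sites. In fragments over the summit, the sites missing on day 2 alone had medians of 44, 31 and 34 on days 0, 4 and 6, against 101, 72 and 84 at the sites of all 4 days. Their −log10 q medians were 18.8, 13.6 and 15.8, against 63.7, 48.2 and 58.4. The merged sites were also narrower, with median widths of 313 bp and 404 bp.

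**Figure D1:**
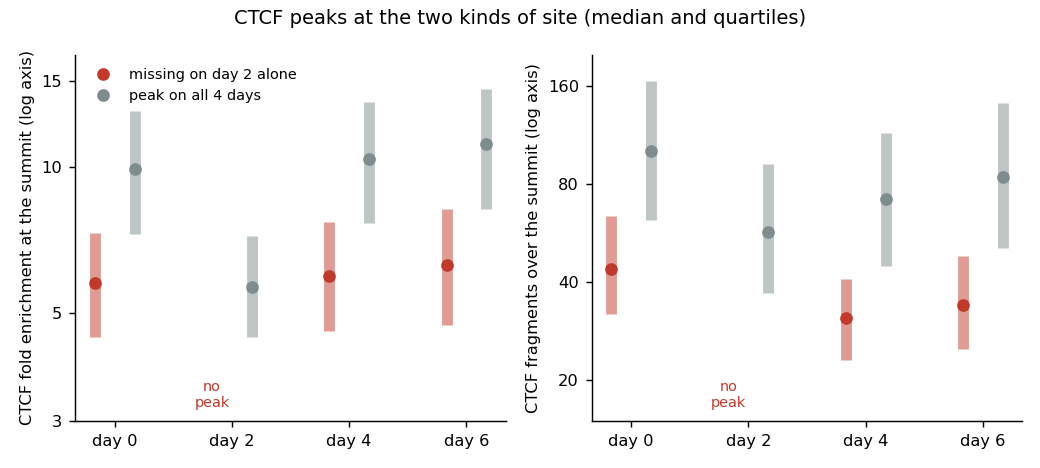
CTCF fold enrichment (left, log axis) and fragments over the summit (right, log axis) by day, with points for the median and bars for the quartiles of the sites missing on day 2 alone (red) and of the sites with a peak on all 4 days (grey). The red medians of fold are 5.75, 5.95 and 6.27 on days 0, 4 and 6, and the grey median is 5.66 on day 2, lower than on the other days.

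On the days when the sites missing on day 2 alone were called, their folds had close medians but single sites varied. The median ratio to the day 0 fold was 1.05 on day 4 (quartiles 0.804 and 1.35) and 1.10 on day 6 (quartiles 0.833 and 1.44). The summits lay a median of 11 bp from the day 0 summit on both days, within 50 bp at 96.2% and 96.5% of the sites. The sites of all 4 days had like ratios of 1.04 and 1.11 on days 4 and 6. On day 2 their ratio was 0.574 (quartiles 0.442 and 0.762), and 90.0% of them had a lower fold than on day 0. Their day 2 median was 5.66 in fold, 22.8 in −log10 q and 57 in fragments.

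The day 2 CTCF list was the shortest, with 47414, 28137, 36787 and 38109 peaks on days 0, 2, 4 and 6. Its genome-wide background level, the only measure of depth that the lists hold, was 2.67 fragments, against 2.87, 1.83 and 1.87 on days 0, 4 and 6. A peak at that level needed at least 10 fragments on days 0 and 2 and 8 on days 4 and 6, which is a fold of 2.85, 3.00, 3.18 and 3.13 in day order. The absence of a day 2 peak is therefore the absence of a call and not a measured level of 0, and less CTCF on day 2 and a less efficient day 2 immunoprecipitation cannot be told apart in these lists.

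Of the 31518 sites with CTCF peaks on days 0, 4 and 6, 19.4% had none on day 2 (interval 18.9 to 19.8), a share that the rule itself fixes. For the other days, the share missing among the sites called on the remaining 3 days was 1.40% for day 0, 1.85% for day 4 and 1.40% for day 6. In 10 classes of equal size by the lowest −log10 q of days 0, 4 and 6, the share missing on day 2 was 65.6% in the weakest class (−log10 q of 1.31 to 8.11), 12.0% in the fifth and 0.666% in the eighth. In the strongest class it was 0 of 3152 sites, with an exact interval up to 0.117%. The share was lower in each stronger class. Even so, 3271 of the 6109 sites (53.5%) had a −log10 q of 10 or more on each of days 0, 4 and 6, 294 (4.81%) had 30 or more, and 88 (1.44%) had a fold of 10 or more on each of these days.

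Some sites were decided by a peak at the calling limit. Among the sites just inside, one 973 bp from Capn2, a calpain protease gene (chr1:182466023-182466279), had folds of 2.89, 2.23 and 3.15 on days 0, 4 and 6 and a day 4 −log10 q of 1.31. One inside Cdv3 (chr9:103357939-103358143) had folds of 3.61, 2.72 and 3.23, and one 1137 bp from the myosin light chain gene Myl12a (chr17:70992304-70992655) had 4.86, 3.94 and 2.37. Just outside, a site inside Agtpbp1, a carboxypeptidase that trims glutamate from tubulin (chr13:59494631-59495318), was kept out by a day 2 peak with a fold of 2.24 and a −log10 q of 1.31, beside folds of 6.77, 6.03 and 5.89 on days 0, 4 and 6. A site inside Flacc1 (chr1:58677566-58678126) had the same day 2 fold and −log10 q. A site 4132 bp from Vapa, an endoplasmic reticulum anchor protein gene (chr17:65575306-65575920), had a day 2 fold of 2.38 and folds of 6.19, 3.98 and 7.70 on days 0, 4 and 6.

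The 10 strongest sites, ranked by their lowest fold over days 0, 4 and 6, had folds of 13.0 to 21.1 on every one of these days. The highest stood inside Nxpe3, a gene of the neurexophilin and PC-esterase domain family (chr16:55852747-55853318), with folds of 21.1, 16.9 and 18.6 on days 0, 4 and 6. A site 3834 bp from Pcsk1n, which encodes the proSAAS inhibitor of a prohormone convertase (chrX:7915673-7915987), had 18.95, 17.6 and 16.7. A site 13564 bp from Gm38821 (chr6:51209048-51209392) had 15.7, 14.8 and 16.7, with a day 2 peak 2029 bp away.

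A site 18398 bp from Ccdc130 (chr8:84288857-84289230) had folds of 19.1, 14.7 and 19.8 on days 0, 4 and 6, from 135, 64 and 85 fragments. A site 12394 bp from 6030458C11Rik (chr15:12795481-12795782) had 15.0, 20.5 and 14.0, and the nearest day 2 peak was 171624 bp away. The others stood 26236 bp from the phospholipase gene Ddhd1 (chr14:45566518-45566934), inside Tmem29 (chrX:150477848-150478718), 30157 bp from Dennd3, an exchange factor for Rab proteins (chr15:73481931-73482402), inside the calcineurin subunit gene Ppp3ca (chr3:136895552-136895939), and 1845 bp from the cyclic AMP phosphodiesterase gene Pde8a (chr7:81336381-81336914). Their lowest folds were 13.5, 13.3, 13.2, 13.2 and 13.0, in the order named. Of the 10, 3 lay inside protein-coding genes and 7 between them, and 7 had an MBD3 peak on some day (5 at day 0, 0 at day 2, 1 at day 4 and 2 at day 6). Over all 88 sites with a fold of 10 or more on days 0, 4 and 6, 33.0% had MBD3 on some day (interval 23.3 to 43.8), against 85.1% of the sites of all 4 days with such folds. Both groups share only that lower limit of fold and were not matched above it. The 10 strongest sites all remained missing on day 2 alone under each alternative rule that was tried. Their −log10 q was 41.155 or more on days 0, 4 and 6, and no day 2 peak lay nearer than 2029 bp. Those rules could therefore hardly remove them, and the outcome is no support.

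**Figure D2:**
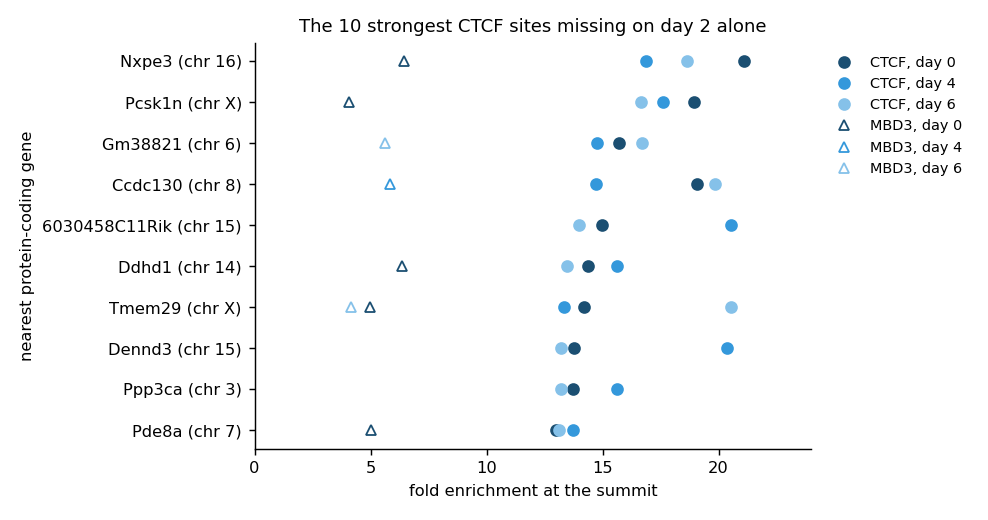
Fold enrichment at the summit (linear axis) of CTCF (filled circles) and MBD3 (open triangles) on days 0, 4 and 6 at the 10 sites missing on day 2 alone with the highest lowest fold, named by the nearest protein-coding gene. Every CTCF fold is 13.0 or more, and the MBD3 folds shown lie between 4.07 and 6.44.

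MBD3 peaks were scarce at the sites missing on day 2 alone. For day 0, 232 of the 6109 sites overlapped an MBD3 peak (3.80%, interval 3.33 to 4.31), against 32.6% of the sites of all 4 days and 17.2% of all merged CTCF sites. On day 2 it was 9 sites (0.147%, interval 0.0674 to 0.279), against 3.50% of the sites of all 4 days and 2.14% of all merged sites. On day 4 it was 127 sites (2.08%, interval 1.74 to 2.47), against 28.9% and a background of 14.7%. On day 6 it was 192 sites (3.14%, interval 2.72 to 3.61), against 38.0% and a background of 18.7%. Some day had an MBD3 peak at 493 of the sites missing on day 2 alone (8.07%) and at 55.1% of the sites of all 4 days. The MBD3 lists themselves held 10464, 1991, 9006 and 10875 peaks on days 0, 2, 4 and 6.

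At the sites of all 4 days, MBD3 shares rose with CTCF fold except among the weakest. All sites called on days 0, 4 and 6 were put in 10 classes of equal size by mean log2 fold of these days. Day 0 MBD3 stood at 11.4% of the sites of all 4 days in the weakest class, 9.98% in the second and 70.0% in the strongest. The sites of all 4 days were therefore also counted with the same mix of CTCF strength, by these classes, as the sites missing on day 2 alone. The day 0 MBD3 share was then 3.80% at sites missing on day 2 alone and 13.6% at sites of all 4 days. For day 4 it was 2.08% and 9.33%, and for day 6 it was 3.14% and 8.50%, in the same order of sites. With classes of the lowest −log10 q in place of fold, the sites of all 4 days had 8.34%, 4.63% and 6.38% on days 0, 4 and 6, and with classes of fragment number 6.71%, 4.72% and 8.58%. The direction was thus the same under the 3 measures of strength on each of these days, and the size of the difference was not. It also depended on peaks whose expected background was over 10 times the level of their list. Without such peaks the shares at sites missing on day 2 alone were 8.94%, 6.95% and 7.12% on days 0, 4 and 6, and the day 4 difference at equal fold was -0.261 percentage points in place of -7.25. There, a removed day 2 peak makes its site count as missing. Leaving out whole sites that hold such a peak gave -3.70. In the seventh class by fold, day 6 MBD3 stood at 21.5% of the sites missing on day 2 alone and 42.6% of the sites of all 4 days. The sites missing on day 2 alone were narrower, which leaves fewer bases for an overlap. The part of width in the difference was not tested.

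**Figure D3:**
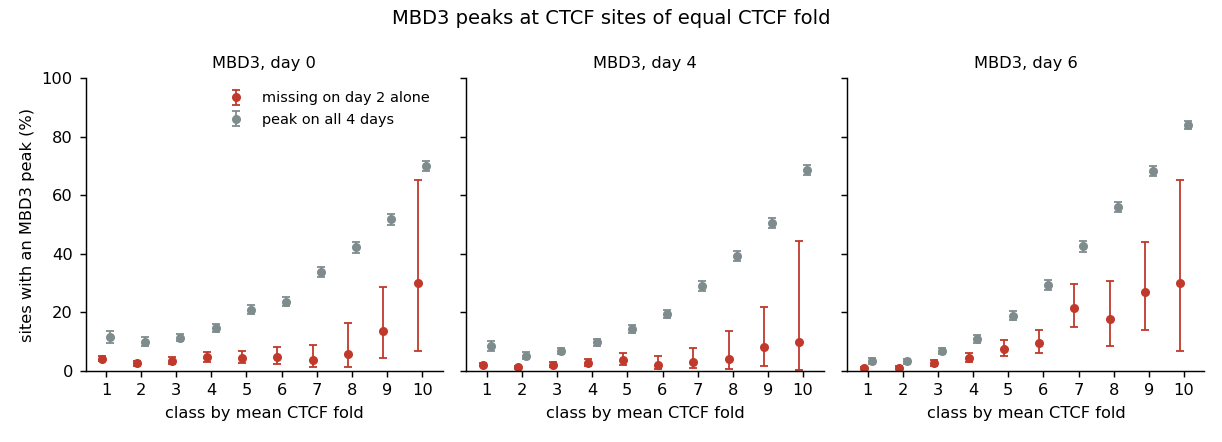
Share of sites with an MBD3 peak (percent, with exact 95% intervals) on days 0, 4 and 6 by class of mean CTCF fold, for sites missing on day 2 alone (red) and sites with a peak on all 4 days (grey). Red lies below grey in every class shown, and only 10 red sites fall in the strongest class, where 30.0% and 84.0% had day 6 MBD3.

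At the sites missing on day 2 alone, MBD3 called on day 0 was seldom called later. Of the 232 sites missing on day 2 alone with MBD3 on day 0, 26 (11.2%) had it on day 4 and 25 (10.8%) on day 6, against 54.9% and 64.3% of the sites of all 4 days with day 0 MBD3. MBD3 was called on a single day at 192 of the sites missing on day 2 alone for day 0, at 93 for day 4 and at 159 for day 6. On days 0, 4 and 6 without day 2, the pattern of their CTCF peaks, 6 had it (0.0982%), against 3006 of the sites of all 4 days (11.8%). On all 4 days 5 had it (0.0818%), against 2.76% of the sites of all 4 days. These comparisons were not made at equal CTCF strength. Median MBD3 folds at the sites missing on day 2 alone were 3.62, 3.46, 3.41 and 4.51 on days 0, 2, 4 and 6, against 4.28, 4.16, 3.95 and 4.57 at the sites of all 4 days. The highest were 9.02, 10.1, 7.70 and 8.26, against 32.3, 20.1, 29.5 and 37.7. A call at the background level of each MBD3 list needed a fold of 3.58, 3.46, 3.41 and 3.74 in day order.

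The named sites with MBD3 on days 0, 4 and 6 and none on day 2 include one on Krt8, a keratin gene of simple epithelia (chr15:102004085-102004617), with MBD3 folds of 4.31, 3.4 and 5.04 and CTCF folds of 7.23, 7.18 and 8.32 on those days. A site inside the fatty aldehyde dehydrogenase gene Aldh3a2 (chr11:61231290-61231756) had MBD3 folds of 2.72, 4.26 and 4.5 and CTCF folds of 9.64, 14.0 and 12.0. One on the lncRNA gene Gm46652, 30512 bp from Cacul1 (chr19:60611536-60611947), had MBD3 folds of 4.07, 3.20 and 3.88. A site 596 bp from Setd5 and on the lncRNA gene Gt(ROSA)26Sor (chr6:113075949-113076665) had MBD3 folds of 5.71, 5.71 and 2.99. The last, 2535 bp from the vomeronasal receptor gene Vmn1r238 (chr18:3119578-3119956), had CTCF folds of only 1.67, 2.71 and 1.68, with an expected background of 48.2 fragments on day 0.

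Named sites among the 9 with an MBD3 peak on day 2 had high CTCF backgrounds. A site inside Hnrnpl, an RNA-binding splicing regulator gene (chr7:28810689-28811064), had no MBD3 peak on day 0 and MBD3 folds of 10.1, 7.70 and 8.19 on days 2, 4 and 6. Its CTCF folds were 2.08, 4.58 and 4.80 on days 0, 4 and 6, and its CTCF background on day 0 was 96.0 fragments. Sites on the histone H2A genes H2ac23 (chr13:21810540-21810854) and H2ac4 (chr13:23751243-23751529) had day 2 MBD3 folds of 7.81 and 3.46. Sites on Ywhah, a 14-3-3 protein gene (chr5:33018538-33019100), and Bag1, a co-chaperone gene (chr4:40947874-40948551), had 7.20 and 3.87. The day 0 CTCF backgrounds of the 5 named sites ran from 21.9 to 96.0 fragments, against a median of 6.69 over the sites missing on day 2 alone. A high background lowers the fold that a given number of fragments gives, and its part in the missing calls was not tested.

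A larger share of sites lacked a day 2 peak on X than on the autosomes. On X, 241 of 764 sites with peaks on days 0, 4 and 6 had none on day 2 (31.5%, interval 28.3 to 35.0), against 5862 of 30734 on the autosomes (19.1%, interval 18.6 to 19.5). Single autosomes ran from 16.3% on chromosome 8 to 22.7% on chromosome 14, all below X. On Y it was 6 of only 20 sites (30.0%, interval 11.9 to 54.3). For the sites missing on another day alone, the X and autosome shares were 1.88% and 1.39% for day 0, 1.51% and 1.86% for day 4, and 0.570% and 1.42% for day 6. Among the 88 sites with a fold of 10 or more on days 0, 4 and 6, 11 lay on X (12.5%, interval 6.41 to 21.3), against 1.68% of the sites of all 4 days with such folds. The Pcsk1n and Tmem29 sites are examples of those on X. Here too the groups share only the lower limit of fold.

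X sites had fewer fragments at a given fold. The X sites missing on day 2 alone had median folds of 6.45, 7.6 and 8.00 on days 0, 4 and 6, above the 5.75, 5.89 and 6.19 of the autosomal ones, but medians of 31, 24 and 28 fragments, against 45, 31 and 35. Their expected background was 3.65, 1.89 and 2.18 fragments on X and 7.04, 4.17 and 4.42 on autosomes. Which measure of strength was held equal therefore decided the comparison. With the autosomal sites weighted to the X sites' classes of fold, the autosomal share missing was 18.8%, which is 12.7 percentage points below X. With classes of lowest −log10 q it was 30.0%, 1.52 points below X. With classes of fragment number it was 36.9%, and the direction turned, to 5.32 points above X.

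**Figure D4:**
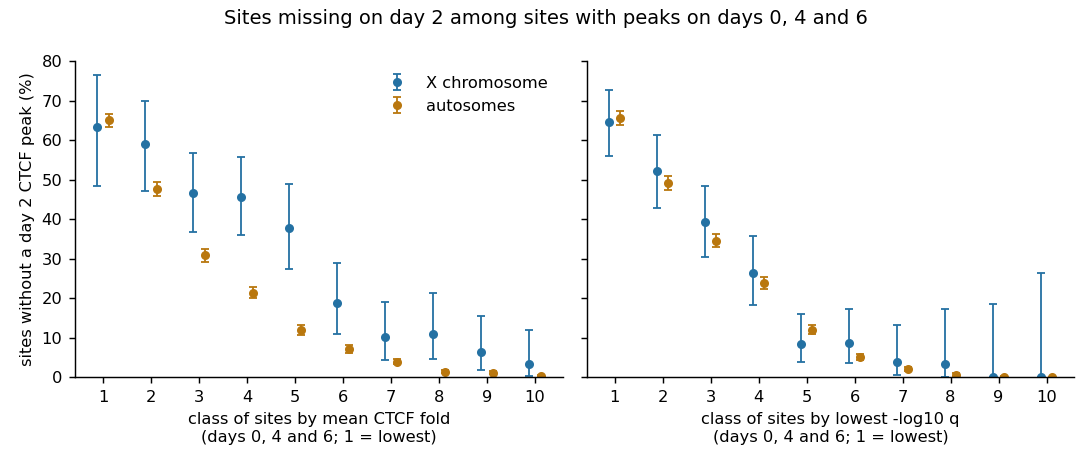
Share of sites without a day 2 CTCF peak (percent, with exact 95% intervals) among sites with peaks on days 0, 4 and 6, for the X chromosome (blue) and the autosomes (orange), by class of mean CTCF fold (left) and by class of lowest −log10 q (right). The share over all chromosomes falls along the classes of −log10 q, with 65.6% in the first and 12.0% in the fifth, and X stands above the autosomes in the middle classes by fold but close to them by −log10 q.

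Neighbouring sites were missing on day 2 alone about as often after one such site as after a site of all 4 days. After one of them, the next site along the chromosome with peaks on days 0, 4 and 6 was again missing on day 2 alone in 19.8% of cases (interval 18.8 to 20.8), and after a site of all 4 days in 19.3% (interval 18.8 to 19.8). On X these shares were 32.8% and 31.0%. Runs were counted along all merged CTCF sites of any pattern, of which the sites missing on day 2 alone are 11.4%. Of the sites missing on day 2 alone, 4776 stood alone, 541 runs held 2 in a row, 72 held 3, 6 held 4, 1 held 5 and 1 held 6. In total 1333 (21.8%) stood in runs of 2 or more. No expected value of that share was computed, and it is not read as clustering. The run of 6 lay within 14431 bp inside Slco3a1, an organic anion transporter family gene (chr7:74357088-74371518), and its day 0 folds were 2.52 to 5.96. The run of 5 (chr7:29154070-29245269) passed Fam98c, the proteasome subunit gene Psmd8, the potassium channel gene Kcnk6 and Yif1b, with day 0 folds of 3.24 to 7.85. One run of 4 (chr10:128358880-128374681) lay at the citrate synthase gene Cs, Coq10a and Ankrd52. The nearest day 2 CTCF peak was a median of 16400 bp away (quartiles 5537 and 40324), under 1 kb for 5.12% and over 100 kb for 8.58%.

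In position relative to genes, the sites missing on day 2 alone resembled the sites of all 4 days before strength was taken into account. They lay within 1 kb of an outer end of a protein-coding gene in 815 cases (13.3%, interval 12.5 to 14.2), against 12.9% of the sites of all 4 days and a background of 15.4% of all merged sites. With the sites of all 4 days weighted to equal classes of CTCF fold their share was 17.9%, and with classes of lowest −log10 q it was 9.04% and of fragment number 4.72%, so the direction turned with the measure of strength. Sites inside protein-coding genes were 51.5% and 50.8% (background 53.7%). Promoter windows were overlapped by 5.76% and 6.31% (background 7.73%), and pseudogenes by 1.26% and 0.945% (background 1.28%). In each pair the sites missing on day 2 alone come first.

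Of 21887 protein-coding genes, 932 had a site missing on day 2 alone within 1 kb of an end (4.26%). A set of 251 genes in 13 lists covered stem cell and early fate genes, and also Hox, imprinted, chromatin, signalling and housekeeping genes. Of these, 247 were in the annotation and 9 had such a site (3.64%), while 43 had a site of all 4 days (17.4%, against 15.7% of all genes). No such site lay within 1 kb of a gene for the core and naive pluripotency factors (22 genes), the formative factors (11), neuroectoderm regulators (16), CTCF and cohesin proteins (19), NuRD subunits (15) or signalling components (24). Within 5 kb there were 34 of the 247 listed genes (13.8%), against 10.3% of all protein-coding genes. Of these 34, 8 were Hox genes, among them Hoxd8, Hoxd9, Hoxd10, Hoxd11 and Hoxd13 of a single cluster. Neighbouring genes can share a site, so the listed genes are not independent.

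Among pluripotency genes, Utf1, a chromatin-associated factor of undifferentiated cells, had a site 4668 bp from its nearer end (chr7:139949781-139950216) with CTCF folds of 5.91, 6.30 and 7.98 on days 0, 4 and 6 and a day 6 MBD3 fold of 3.09. Pou5f1, which encodes the core pluripotency factor OCT4, had one 1174 bp away (chr17:35509354-35509603) with 2.3, 4.97 and 6.37. That low day 0 fold came from 159 fragments, against 51 and 55 on days 4 and 6. Tdgf1, a Nodal co-receptor gene, had one 1498 bp away (chr9:110944274-110944660) with 4.15, 5.10 and 5.62. Cer1, a secreted Nodal and BMP antagonist of the early endoderm, had one 798 bp away (chr4:82882549-82882796) with 4.51, 7.61 and 5.91.

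Hoxd11, a limb and posterior patterning gene, had a site 389 bp from its end (chr2:74686356-74686627) with CTCF folds of 6.44, 12.5 and 8.42 on days 0, 4 and 6, and it was the single Hox gene of 39 with one within 1 kb, against 9 with a site of all 4 days. Among 33 imprinted genes, 3 had one within 1 kb. Over all protein-coding genes, 4.26% had one within 1 kb and 15.7% had a site of all 4 days. Counts this small are not read as a trait of the Hox or imprinted genes. The site at Rasgrf1, a Ras exchange factor (chr9:90027729-90028109), had 8.31, 5.37 and 9.51, the site on Gnas, a G protein subunit gene (chr2:174284025-174284348), had 4.83, 4.11 and 4.40, and the site at Peg3, a zinc finger gene (chr7:6729014-6729509), had 4.08, 3.69 and 2.7. The Peg3 site had a day 2 peak 1169 bp away.

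Of the chromatin genes, Mbd4, a DNA glycosylase gene (chr6:115853056-115853436), carried a site with folds of 2.89, 2.53 and 2.23 on days 0, 4 and 6, and Ezh1, a histone H3 methyltransferase gene of Polycomb (chr11:101226351-101226762), one with 3.75, 3.35 and 3.59. The NuRD subunit genes Mta1 (chr12:113140158-113140542) and Rbbp7 (chrX:162764149-162764370) had sites 2951 and 3777 bp away. Their folds were 5.55, 1.87 and 2.29 at Mta1, and 3.32, 4.89 and 6.00 at Rbbp7. Of the 24 signalling genes, 6 had a site within 5 kb, against 10.3% of all protein-coding genes. Counts within 5 kb ran from 0 of 11 formative, 0 of 16 neuroectoderm and 0 of 19 CTCF and cohesin genes to 3 of 10 trophoblast genes. Counts this small are not read as a trait of the signalling genes. The 6 signalling genes were Fgfr2, Axin2 and the 4 with the highest day 0 −log10 q, whose sites lay between 1187 and 4455 bp away. Id3, a BMP-induced inhibitor of differentiation factors (chr4:136149848-136150166), had the highest folds of these 4, with 9.67, 12.7 and 13.7 and a day 6 MBD3 fold of 6.72. Lefty2, a Nodal antagonist (chr1:180901059-180901438), had 7.91, 11.3 and 9.91. The BMP effector gene Smad1 (chr8:79339582-79339906) had 8.07, 6.47 and 3.41, and the BMP receptor gene Bmpr1a (chr14:34408655-34408939) 5.52, 5.37 and 6.14. Gapdh, a glycolysis gene among the housekeeping genes, had one 88 bp from its end (chr6:125161940-125162293) with 2.19, 4.99 and 4.24.

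**Figure D5:**
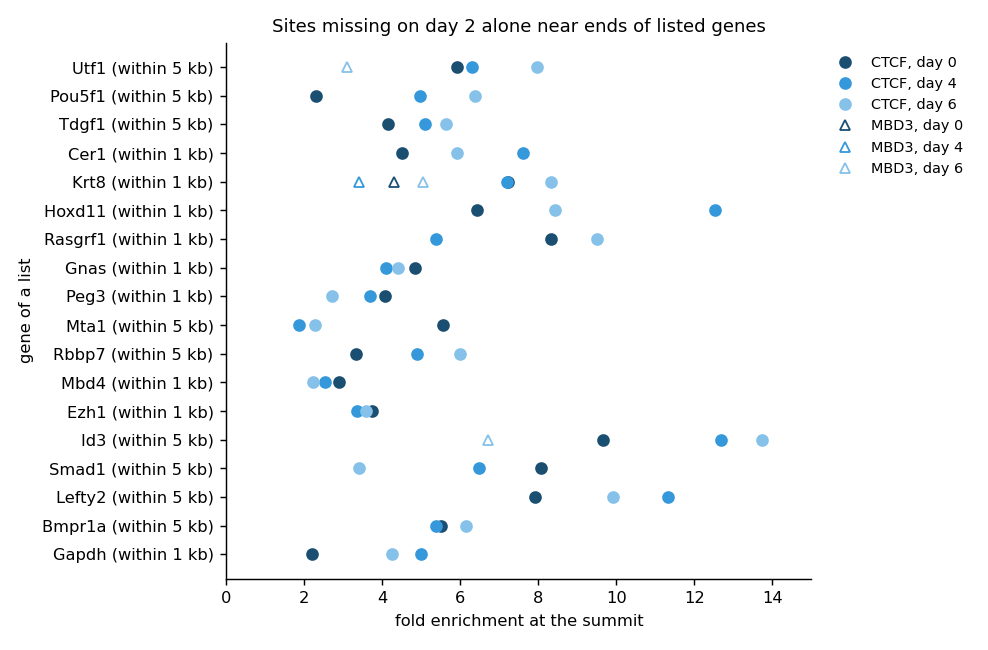
Fold enrichment at the summit (linear axis) of CTCF (filled circles) and MBD3 (open triangles) on days 0, 4 and 6 at the 18 named sites missing on day 2 alone near listed genes, with the window in which each lay. CTCF folds run from 1.87 to 13.7, and 3 of the 18 sites, at Utf1, Krt8 and Id3, had an MBD3 peak.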

How the data were processed

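Per the labels' protocols, sonicated chromatin was immunoprecipitated, size-selected and sequenced from both ends after PCR, without molecular identifiers. Per the submitters' processing notes, the tools included MACS2 2.1.2, bedtools 2.25.0, Bowtie2 2.3.4, SAMtools 1.9 and FastQC 0.11.7, and the build was mm10; their settings are not given in the sources used here. The authors deposited 8 peak lists, CTCF and MBD3 on 4 days, whose peak names show that replicates 1 to 3 were pooled. The authors give for each peak a score, a fold enrichment (a ratio to expected background), and the −log10 of its p-value and q-value at the summit; all are the peak caller's own values. The lowest −log10 q was 1.30 to 1.31. Depth per library is unknown.

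Intervals listed with several summits were counted once with the summit of highest −log10 q. Chromosomes 1 to 19, X and Y were kept, and peaks that overlapped by 1 bp or more were merged. The number of fragments and the expected background at a summit were recovered from fold and −log10 p, within 0.1% of the latter; all summits with a −log10 p under 30 were recovered. The background level of a list is the lowest value shared by at least 0.5% of its peaks. Sites were put in 10 classes of equal size by mean log2 fold, and additionally, chosen after seeing the data, by lowest −log10 q and fragment number. Genes and promoters came from RefSeq GRCm38.p6, the assembly of mm10; a gene end is either outer end, and exons were not told apart. Shares have exact 95% binomial intervals. With 1 pooled list per day no test across replicates was possible and none was made. On simulated peaks the merging code and bedtools 2.31.1 found the same 4131 sites. Python 3.11.15, pandas 2.3.3, numpy 2.4.6, scipy 1.17.1 and matplotlib 3.10.9 were used.

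The named sites are the 10 with the highest lowest fold, up to 5 each with MBD3 on day 2 and with MBD3 on days 0, 4 and 6 alone, up to 4 per gene list, the 3 just inside and just outside the threshold, the longest runs and the 3 with the highest fold for their class of day 0 fold, which are also among the 10 strongest. The sites, lists and rules were chosen with earlier results of these data known.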

Additional observations from a re-analysis of the deposited data

How the results depend on the processing

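The main values are 6109 sites, MBD3 shares of 3.80%, 0.147%, 2.08% and 3.14% on days 0, 2, 4 and 6, and 13.3% within 1 kb of a gene end. The main differences from sites of all 4 days at equal CTCF fold are -9.77, -7.25 and -5.36 percentage points for MBD3 on days 0, 4 and 6 and -4.59 for gene ends, and X exceeds the autosomes by 12.7. Values below keep that order and name only what moved. With a CTCF −log10 q of 10 or more on every day, the MBD3 shares were 6.80%, 3.88% and 7.73% on days 0, 4 and 6 and the gene-end share 11.6%, with differences of -13.6, -11.1, -7.91, -6.45 and 24.5. There, a day 2 peak under the limit was removed, which makes its site count as missing. The 5953 sites so counted therefore include sites with a called day 2 peak. With that limit on days 0, 4 and 6 only, set for the sites missing on day 2 alone, 3271 of them were left. Their MBD3 shares were 4.68%, 2.57% and 5.11%. The differences were -11.1, -8.58, -7.56, -1.44 and 7.93, with the sites of all 4 days left unfiltered, so strength limits differed between the groups. When each day gave an equal number of CTCF peaks, 1804 sites were left, the MBD3 shares were 6.43%, 0.0554%, 3.49% and 7.04% and the gene-end share 14.7%, with differences of -15.7, -12.8, -11.2, -3.55 and 7.53. Without peaks whose background was over 10 times the list's level, where a removed day 2 peak makes its site count as missing, the MBD3 shares were 8.94%, 6.95% and 7.12% on days 0, 4 and 6, with differences of -2.52, -0.261 and -2.90, and the gene-end difference turned to 2.11. Leaving out whole sites that hold such a peak, chosen after seeing the data, gave MBD3 shares of 3.26% and 0.0341% on days 0 and 2, a gene-end share of 10.5%, and differences of -6.51, -3.70, -4.31 and -0.458. A window of 5 kb held 30.4%. Classes of lowest −log10 q, also added, gave differences of -4.55, -2.55 and -3.24, with gene ends turned to 4.30 and X at 1.52. Classes of fragment number, also added, gave -2.92 and -2.64 on days 0 and 4, with gene ends turned to 8.62 and X to -5.32. The cause of these shifts was not tested. Requiring summits within 100 bp, 50% overlap, no day 2 peak within 1 kb, or all chromosomes left between 5796 and 6116 sites. The MBD3 differences on days 0, 4 and 6 kept their sign under every alternative run. On day 4 the value of -0.261 without peaks of high background is close to no difference, so its sign carries little weight.

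The lists hold pooled calls, so leaving out a library was not possible, and a site without a call can still hold CTCF below the limit. No paired analysis was possible because each list pools the 3 replicates of its day.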
